A study of Drosophila melanogaster with 6 samples.

Results

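Expression of the enzymes of amino acid and one-carbon catabolism was examined in RNA sequencing libraries of fat body cells from adult *Drosophila melanogaster* females. The set was taken by gene symbol, matched in exact case, from a fixed list of enzymes of amino acid breakdown, the methionine cycle, the folate pathway and the end of purine breakdown. It held 38 of the 17558 genes in the deposited tables. Of these, 34 were found under the listed symbol and 4 under another symbol of the same gene: *Hpd* is listed as *CG11796*, *CG14993* as *Faa*, *CG5840* as *P5cr-2* and *CG6385* as *Sardh*. Enough reads for a test were counted for 36 of the 38 genes, and *cn* and *CG5840* fell below that level.

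Amino acids that are not built into protein lose their amino group by transamination or deamination, and their carbon then enters central metabolism. Methionine is turned into S-adenosylmethionine, the methyl donor of most methylation reactions, and in *Drosophila* the fat body enzyme Gnmt consumes surplus S-adenosylmethionine by methylating glycine to sarcosine. Sarcosine dehydrogenase turns sarcosine back into glycine, and serine hydroxymethyltransferase, the glycine cleavage system and the folate enzymes exchange the released carbon units. The insect fat body combines tasks that liver and adipose tissue share in mammals, and it is a main site of these reactions.

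The study asked which transcripts depend in the fat body on *svp* (*seven-up*), which encodes a nuclear receptor of the COUP-TF family. The 3 libraries labelled *svp* RNAi came from females with the hairpin *UAS-svp GD1546*, and the 3 *Luc* RNAi control libraries from females with *UAS-Luc JF01355*, a hairpin against firefly luciferase. Females of both groups were *y w* and carried *3.1Lsp2-Gal4*, a driver for adipocytes, *PromE800-Gal4*, a driver for oenocytes, and *tubGal80ts*, which holds Gal4 inactive at 18 °C. They were grown at 18 °C, were 0 to 2 days old at collection, stayed at 18 °C for 3 more days together with *y w* males, received wet yeast, and had RNAi induced for 5 days at 29 °C. For each library, cells were released with trypsin and collagenase from the abdominal carcasses of 100 females, so a library is a pool of animals that can also hold cells other than fat body. In the sample labels the controls are called wild-type, and a single hairpin line stands for each group. According to the methods, 3 independent experiments were sequenced.

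Library totals on genes ran from 15648948 to 19476599 fragments. The transcript targeted by the hairpin, *svp*, had 67.0, 86.9 and 82.3 CPM in the libraries labelled *svp* RNAi and 28.9, 77.4 and 79.0 CPM in the *Luc* RNAi controls. Here and below, CPM is the count scaled to a common library size with edgeR's TMM factors, and values are given in the order of replicates 1, 2 and 3. The log2 fold change of *svp* was 0.35 with a 95% interval from −0.57 to 1.28, which includes a modest decrease, and it was 0.04 without *Luc* control RNAi replicate 1. A lower *svp* transcript level was therefore not measured in these libraries, the RT-qPCR of the study was not analysed here, and directions below compare labelled groups. *Luc* control RNAi replicates 1 and 2 lay at opposite ends of the first principal component, which held 53.7% of the variance, at −68.0 and 55.7. The 7 adult fat body markers (yolk proteins, lipoproteins, perilipin) summed to 58575 CPM in *Luc* control RNAi replicate 1. They summed to 122972 and 164713 CPM in the other *Luc* RNAi controls and to 144873 to 181565 CPM in the libraries labelled *svp* RNAi. All 7 of these markers were lowest in *Luc* control RNAi replicate 1, and midgut markers summed to 1519 CPM there, against 287 to 1026 CPM in the other 5 libraries. The 5 oenocyte markers were likewise all lowest there. Mitochondrial genes took 10.5% to 14.8% of counts in the libraries labelled *svp* RNAi and 14.1% to 25.5% in the *Luc* RNAi controls, most in replicate 2. Muscle markers summed to 1675 CPM in *Luc* control RNAi replicate 2, against 248 to 637 CPM in the other 5 libraries. The part of mitochondrial and muscle genes in the results was not tested. In bulk RNA, fewer cells of a type and less RNA per cell cannot be told apart.

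Most enzymes of the set were abundant transcripts. FPKM, the deposited value that divides fragments by library total and gene length, allows levels to be compared between genes. Of the 38 genes, 17 had a mean of at least 100 FPKM over the 6 libraries, and 35 of the 36 genes tested lay above the median of 11.9 FPKM over all 9277 genes tested. Serine hydroxymethyltransferase, encoded by *CG3011*, was the most abundant with a mean of 477 FPKM, followed by mitochondrial aspartate aminotransferase *Got2* with 434 FPKM, the cytosolic folate enzyme *pug* with 404 FPKM and phosphoserine phosphatase *aay* with 374 FPKM. The ranges of these 4 genes over the 6 libraries overlapped those of their neighbours in this order, so the order is one of means. Together the 38 genes took 0.809%, 0.997% and 0.857% of all counts in the libraries labelled *svp* RNAi, against 0.665%, 0.775% and 0.964% in the *Luc* RNAi controls, and the groups overlapped.

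**Figure D1:**
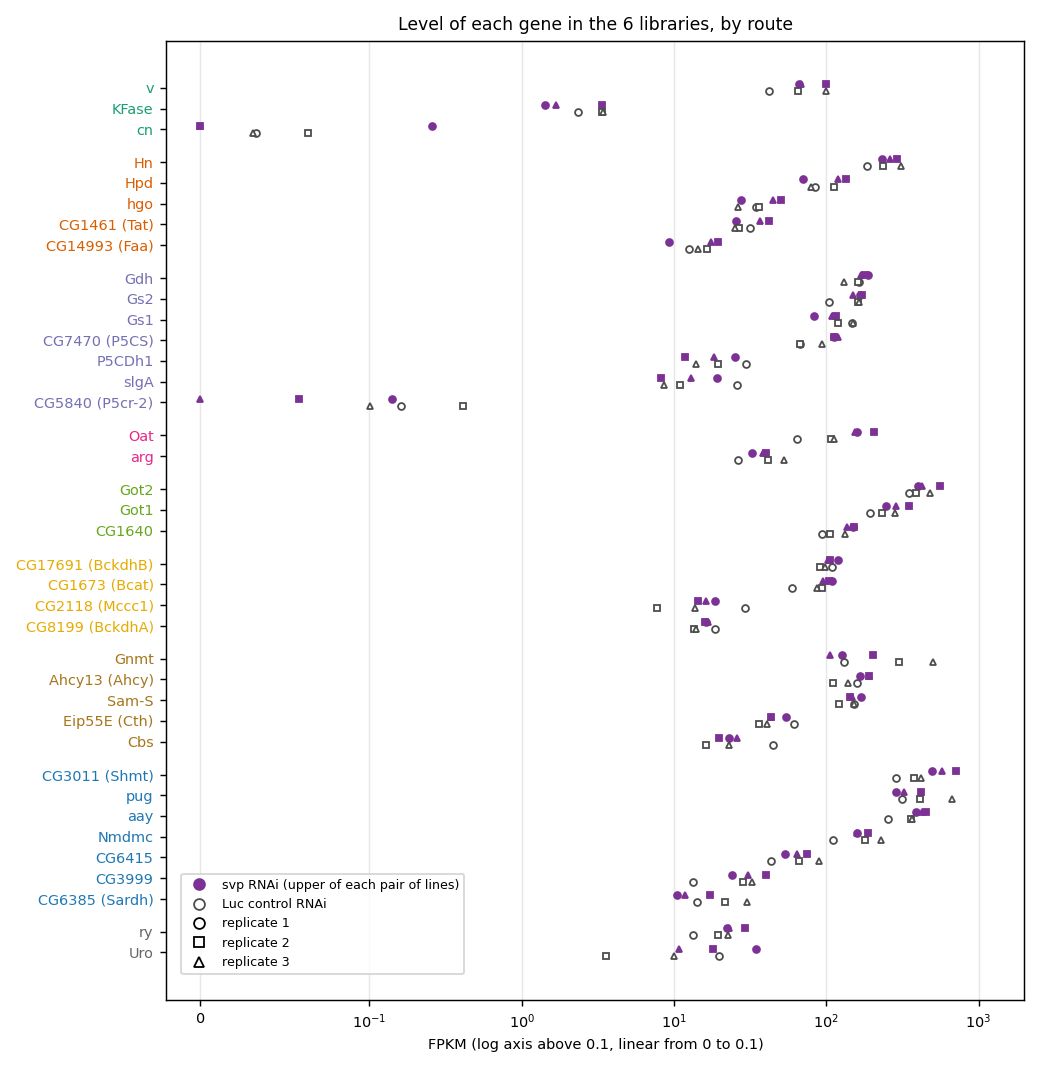
FPKM of the 38 genes in each library, grouped by metabolic route, on an axis that is logarithmic above 0.1 and linear below; filled purple symbols are the libraries labelled svp RNAi and open symbols the Luc control RNAi libraries. Mean levels span from 0.0643 FPKM for cn to 477 FPKM for CG3011, and the libraries of both groups intermingle for most genes.

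No gene of the set was called different between the groups by edgeR or DESeq2. With edgeR's quasi-likelihood test, 0 of 36 genes had an adjusted p below 0.05, where 9 of 9277 genes (0.097%) did over the whole table. In this TMM-scaled fit none reached an unadjusted p of 0.05 either, where 4.99% of all genes did. The unadjusted edgeR p values of the 36 genes ran from 0.0943 for *Gnmt* to 0.980 for *Hn*. Scaled by library totals without TMM, edgeR gave *CG7470*, *Oat* and *CG3011* unadjusted p values below 0.05. With a block for replicate number it gave them to *Oat* and *CG3011*. DESeq2 gave *Gnmt* an unadjusted p of 0.0356. The share of all genes below 0.05 was not counted for those fits. DESeq2 called 0 of the 36 genes, against 1.45% of all genes that it gave an adjusted p. Another tool, limma voom with sample quality weights, gave the libraries weights from 0.138 for *Luc* control RNAi replicate 1 to 4.46 for the library labelled *svp* RNAi replicate 3. *Luc* control RNAi replicates 2 and 3 had weights of 0.570 and 3.40, so replicate 3 dominated the controls in this fit. It called 4 genes of the set, all lower in the libraries labelled *svp* RNAi: *Gnmt*, *CG6385*, *pug* and *KFase*. That tool called 604 genes over the table (6.51%), 474 of them lower (5.11% of all genes tested).

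The fitted log2 fold changes of the 36 genes had a median of 0.06, beside −0.06 over all genes tested, and 24 were above 0 and 12 below, where 40.9% of all genes were above 0. Without *Luc* control RNAi replicate 1 the median was −0.04 and 14 were above 0, and without *svp* RNAi replicate 2 it was −0.02. In the fit without *Luc* control RNAi replicate 1, edgeR again called 0 of the 36 genes (0.641% of all genes), and 5 genes (*arg*, *Gnmt*, *CG6385*, *pug* and *Uro*) had an unadjusted p below 0.05, as had 13.7% of all genes. Fold changes of 29 of the 36 genes lay within 0.5 of 0 on the log2 scale. For 13 genes the 95% interval stayed within 2-fold in either direction, and 48.4% of all genes met this limit. The intervals of the other 23 genes included a 2-fold difference. Differences of group means were smaller than the larger of the group SDs for 30 of the 36 genes.

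**Figure D2:**
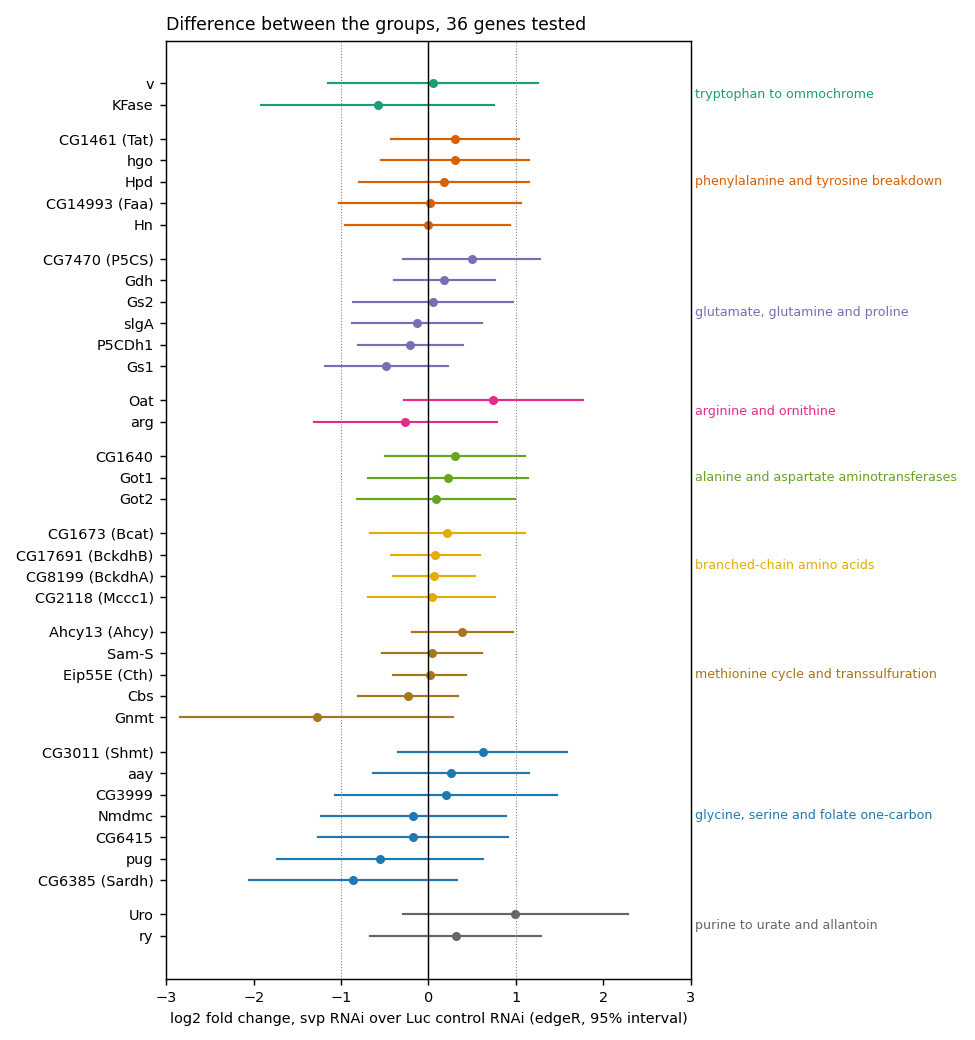
Log2 fold change of the 36 genes tested, libraries labelled svp RNAi over Luc control RNAi, from edgeR, with 95% intervals as bars and dotted lines at a 2-fold change. Every interval crosses 0, and the widest belong to Gnmt, which runs from −2.84 to 0.29, and KFase.

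The tryptophan branch leads over kynurenine to the brown ommochrome eye pigments. Its first enzyme, tryptophan 2,3-dioxygenase encoded by *v* (*vermilion*), was the most abundant of the branch with a mean of 73.6 FPKM. Its level was 76.5, 147 and 86.4 CPM in the libraries labelled *svp* RNAi and 39.4, 102 and 157 CPM in the *Luc* RNAi controls. The groups overlapped, with the lowest and the highest value both among the controls. A functional *v* copy is the marker of the vector class to which *UAS-Luc JF01355* belongs, and transcripts of such a copy cannot be told apart from those of the endogenous gene in these counts. *KFase*, encoding kynurenine formamidase, was low throughout, with 1.5, 4.44 and 1.91 CPM in the libraries labelled *svp* RNAi and 2.00, 4.75 and 4.93 CPM in the *Luc* RNAi controls. Its log2 fold change was −0.58 (SE, the standard error, 0.56) in edgeR and −1.30 in limma voom with quality weights (adjusted p = 0.0481). In edgeR it was −0.87 without *Luc* control RNAi replicate 1, −1.19 without *svp* RNAi replicate 2 and −0.29 without *svp* RNAi replicate 1. It overlaps *DLP* on the other strand, which had 6849 counts over the 6 libraries, against 318 for *KFase*. *cn*, encoding kynurenine 3-monooxygenase, had 9, 0 and 0 read counts in the libraries labelled *svp* RNAi and 1, 2 and 1 read counts in the *Luc* RNAi controls, and a count of 0 allows up to 3 counts, or 0.174 to 0.215 CPM in those 2 libraries.

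The set held 5 enzymes of the route from phenylalanine and tyrosine to fumarate and acetoacetate, and all 5 were measured. Phenylalanine hydroxylase, encoded by *Hn* (*Henna*), was the most abundant with a mean of 253 FPKM and had 338, 538 and 421 CPM in the libraries labelled *svp* RNAi and 221, 463 and 622 CPM in the *Luc* RNAi controls. Its mean was 432 ± 100.2 CPM in the libraries labelled *svp* RNAi and 435 ± 202 CPM in the controls (SD, n = 3 each), and both extremes were control libraries. Tyrosine aminotransferase *CG1461*, 4-hydroxyphenylpyruvate dioxygenase *Hpd*, homogentisate dioxygenase *hgo* and fumarylacetoacetase *CG14993* followed with mean levels between 14.9 and 100.3 FPKM. The fitted log2 fold changes of the 5 genes lay between −0.01 and 0.31, or between −0.29 and 0.20 without *Luc* control RNAi replicate 1, and none of their groups was separated in CPM. The 5 genes are not the whole route. Of 6 other genes listed for it, *GstZ1* was the 1 separated in CPM, where 9.32% of all genes tested were. *GstZ1* had 7.25, 7.87 and 8.23 CPM in the libraries labelled *svp* RNAi and 8.68, 14.0 and 15.5 CPM in the *Luc* RNAi controls.

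Genes of glutamate, glutamine and proline metabolism showed no common direction, with 3 fold changes above 0 and 3 below. Glutamate dehydrogenase *Gdh*, which releases ammonia from glutamate, had 331, 402 and 326 CPM in the libraries labelled *svp* RNAi and 235, 384 and 314 CPM in the *Luc* RNAi controls. Control replicates 1 and 3 lay below all libraries labelled *svp* RNAi, and replicate 2 lay among them. *CG7470*, which encodes the synthase that makes pyrroline-5-carboxylate from glutamate, averaged 429 ± 51.2 CPM in the libraries labelled *svp* RNAi and 305 ± 123 CPM in the *Luc* RNAi controls (SD, n = 3 each), with a log2 fold change of 0.49 (SE 0.33, adjusted p = 1.00 in edgeR). The value was 0.27 without *Luc* control RNAi replicate 1 and 0.82 without replicate 3. Proline dehydrogenase *slgA* and the dehydrogenase *P5CDh1*, which return proline to glutamate, had mean levels of 14.3 and 19.8 FPKM and groups that overlapped. *P5CDh1* overlaps *Nopp140*, which had 13796 counts against 5744 for *P5CDh1*. The reductase *CG5840* had 3, 1 and 0 read counts in the libraries labelled *svp* RNAi and 3, 8 and 2 read counts in the *Luc* RNAi controls.

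Glutamine synthetase is encoded by *Gs1* (mitochondrial; chromosome 2L from 132077 to 134472, BDGP6) and *Gs2* (cytosolic; chromosome X from 11422832 to 11430197). *Gs1* had 154, 272 and 222 CPM in the libraries labelled *svp* RNAi and 224, 298 and 381 CPM in the *Luc* RNAi controls, a log2 fold change of −0.48 (SE 0.30, adjusted p = 1.00 in edgeR). *Gs2* had 273, 355 and 270 CPM in the libraries labelled *svp* RNAi and 139, 357 and 369 CPM in the *Luc* RNAi controls. In counts of the same library, which need no scaling, *Gs1* stood to *Gs2* as 0.565, 0.766 and 0.823 in the libraries labelled *svp* RNAi and as 1.62, 0.835 and 1.03 in the *Luc* RNAi controls. The ratio was thus lower in each library labelled *svp* RNAi than in each control, although the nearest values of the groups, 0.823 and 0.835, were close (p = 0.10 in an exact permutation test, two-sided, which cannot go lower with 3 libraries against 3). *Gs1* overlaps *CG11455* on the same strand, which had 7040 counts against 26324 for *Gs1*.

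Arginase, encoded by *arg*, splits arginine into urea and ornithine, and ornithine aminotransferase, encoded by *Oat* (chromosome 3L from 19647280 to 19649851), passes ornithine on towards proline and glutamate. *Oat* had 212, 346 and 224 CPM in the libraries labelled *svp* RNAi and 70.0, 192 and 205 CPM in the *Luc* RNAi controls. It was the single gene of the 36 whose CPM did not overlap between the groups, where 9.32% of all genes tested did not overlap. The gap was narrow, at 212 CPM in the lowest library labelled *svp* RNAi against 205 CPM in the highest control. Its log2 fold change was 0.74 (SE 0.43, adjusted p = 1.00 in edgeR), and it was 0.43 without *Luc* control RNAi replicate 1. *arg* averaged 45.9 ± 10.1 CPM in the libraries labelled *svp* RNAi and 55.1 ± 28.6 CPM in the *Luc* RNAi controls (SD, n = 3 each), and its groups overlapped.

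The number of separated genes depended on how libraries were scaled. With CPM from library totals alone, or with the deposited FPKM, which use the same totals, 9 genes of the set did not overlap, beside 12.1% of all genes, and the split of all such genes was 717 higher and 405 lower in place of 418 higher and 447 lower. Above the controls in all libraries labelled *svp* RNAi were the 8 genes *Gdh*, *CG7470*, *Oat*, *CG1640*, *CG1673*, *Ahcy13*, *CG3011* and *aay*, and *Gs1* was below them. With DESeq2's size factors *Oat* was again the single one, beside 9.49% of all genes. Without *Luc* control RNAi replicate 1 and with TMM scaling, *Oat* was higher and 8 genes were lower (*KFase*, *Gs1*, *Gs2*, *arg*, *Gnmt*, *CG6385*, *pug* and *Nmdmc*), beside 29.8% of all genes tested with 3 libraries against 2. With each library centred on the median of the set, *Oat* and *CG3011* were higher and *KFase*, *Gnmt* and *CG6385* lower, beside 8.16% of all genes, and this setting was chosen after seeing the data.

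Among the aminotransferases of alanine and aspartate, *Got2* had 550, 977 and 650 CPM in the libraries labelled *svp* RNAi and 396, 730 and 917 CPM in the *Luc* RNAi controls. Its cytosolic counterpart *Got1* had 368, 654 and 468 CPM in the libraries labelled *svp* RNAi and 235, 468 and 575 CPM in the *Luc* RNAi controls. Both genes overlapped between the groups and were lowest in *Luc* control RNAi replicate 1 and highest in *svp* RNAi replicate 2. Within a library the ratio of *Got1* to *Got2* was 0.670, 0.669 and 0.720 in the libraries labelled *svp* RNAi and 0.594, 0.641 and 0.626 in the *Luc* RNAi controls, a separation of 0.14 on the log2 scale that was small but free of overlap (p = 0.10 in the same exact permutation test). Alanine aminotransferase *CG1640* averaged 368 ± 55.5 CPM in the libraries labelled *svp* RNAi and 298 ± 118 CPM in the *Luc* RNAi controls (SD, n = 3 each).

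The branched-chain route, which breaks down leucine, isoleucine and valine, had small fitted differences. The dehydrogenase subunit *CG17691* had 104, 117 and 96.9 CPM in the libraries labelled *svp* RNAi and 77.2, 107 and 116 CPM in the *Luc* RNAi controls. The 95% intervals of 3 of its 4 genes, *CG17691*, the partner subunit *CG8199* and the carboxylase subunit *CG2118*, did not include a 2-fold difference, and the fitted log2 fold changes of the 4 genes lay between 0.04 and 0.22, or between −0.08 and 0.35 without *Luc* control RNAi replicate 1. With library totals in place of TMM the fold change of *CG2118* turned negative, and that of *Hn* turned positive there and with upper quartile scaling. *CG8199* and *CG2118* each overlap a gene with more counts than their own, *AP-1mu* and *faf*. The branched-chain aminotransferase *CG1673* was the most variable of the route, with 254 ± 32.4 CPM in the libraries labelled *svp* RNAi and 218 ± 96.2 CPM in the *Luc* RNAi controls.

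**Figure D3:**
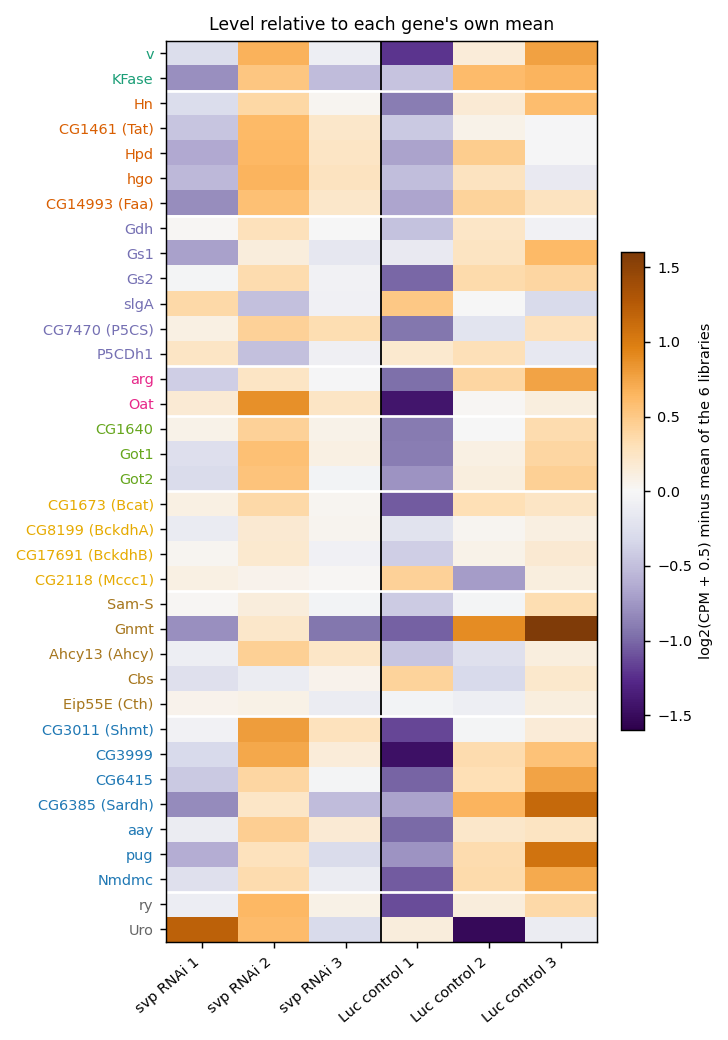
Level of the 36 genes tested in each library, as log2(CPM + 0.5) minus the gene's mean over the 6 libraries; orange is above the mean and purple below, the black line divides the libraries labelled svp RNAi (left) from the Luc control RNAi libraries (right), and white lines divide the routes. The column of Luc control RNAi replicate 1 is mostly purple: 24 of the 36 genes were lowest there.

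Many genes of the set were high in the same libraries and low in the same libraries. *Luc* control RNAi replicate 1 held the lowest CPM of 24 of the 36 genes, or 66.7%, where it held the lowest value of 34.9% of all genes tested. It held the highest value of 3 genes, or 8.33%, beside 35.1% of all genes. The highest value lay in *svp* RNAi replicate 2 for 18 genes, beside 15.2% of all genes, and in *Luc* control RNAi replicate 3 for 13 genes, beside 12.7%. The median deviation of the 36 genes from their own means was −0.19, 0.39 and 0.01 in the libraries labelled *svp* RNAi and −0.72, 0.16 and 0.28 in the *Luc* RNAi controls on the log2 scale. Fat body markers summed to 147775, 181565 and 144873 CPM in the libraries labelled *svp* RNAi and to 58575, 122972 and 164713 CPM in the *Luc* RNAi controls, so their lowest and highest sums fell in *Luc* control RNAi replicate 1 and *svp* RNAi replicate 2, as did the lowest and highest median of the set. Single markers did not all follow this order: *Yp3*, *Apoltp*, *Mtp* and *Lsd-1*, 4 of the 7, were highest in *Luc* control RNAi replicate 3. Hemocyte markers summed to 858.5, 2240.3 and 1023 CPM in the libraries labelled *svp* RNAi and to 629, 2211 and 1226 CPM in the *Luc* RNAi controls, with their lowest and highest sums in the same 2 libraries. The yolk protein genes *Yp1*, *Yp2* and *Yp3* carried most of each fat body sum, as with 30869, 54937 and 52886 CPM of 147775 CPM in *svp* RNAi replicate 1. The part of either marker list in the values of single genes was not tested. *slgA*, *CG2118* and *Cbs* had their highest value in *Luc* control RNAi replicate 1.

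In the methionine cycle, S-adenosylmethionine synthetase *Sam-S* averaged 330 ± 19.8 CPM in the libraries labelled *svp* RNAi and 321 ± 82.5 CPM in the *Luc* RNAi controls (SD, n = 3 each). In transsulfuration, which turns homocysteine into cysteine, cystathionine beta-synthase *Cbs* averaged 42.7 ± 4.69 CPM in the libraries labelled *svp* RNAi and 50.2 ± 12.5 CPM in the *Luc* RNAi controls. Cystathionine gamma-lyase *Eip55E*, with 65.7 ± 4.98 CPM in the libraries labelled *svp* RNAi and 64.9 ± 4.98 CPM in the *Luc* RNAi controls, was the steadiest gene of the set, with a ratio of 1.18 between its highest and lowest library. *Ahcy13*, encoding the hydrolase that clears S-adenosylhomocysteine, averaged 310 ± 56.6 CPM in the libraries labelled *svp* RNAi and 237 ± 48.1 CPM in the *Luc* RNAi controls, with a log2 fold change of 0.39 (SE 0.24, adjusted p = 1.00 in edgeR). The 95% intervals of these 4 genes did not include a 2-fold difference.

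*Gnmt* (chromosome 3R from 12674608 to 12676084), encoding glycine N-methyltransferase, had the largest fitted difference of the set in edgeR with all 6 libraries and no block for replicate number. Without *svp* RNAi replicate 3 or without *Luc* control RNAi replicate 3 the largest was that of *Uro*, at 1.32 and 1.13 on the log2 scale. *Uro* also exceeded *Gnmt* in size with such a block (1.03 against −0.98) and in limma on log2(FPKM + 1) (0.978 against −0.961). *Gnmt* had 111, 223 and 101 CPM in the libraries labelled *svp* RNAi and 94.0, 357 and 602 CPM in the *Luc* RNAi controls. The controls thus spanned more than the whole range of the other group, with replicate 1 below every library labelled *svp* RNAi and replicates 2 and 3 above all of them. The log2 fold change was −1.28 (SE 0.66, adjusted p = 1.00 in edgeR), with a DESeq2 adjusted p of 0.675. Leaving out *Luc* control RNAi replicate 1 gave −1.68 (adjusted p = 0.142 in edgeR), and limma voom with quality weights gave −2.26 (adjusted p = 0.00858). That tool gave replicate 1 the lowest weight (0.138) and, among the controls, the highest to replicate 3 (3.40), where *Gnmt* was highest. Over the 6 fits that each left out a library the value ran from −1.73 to −0.64, the last without *Luc* control RNAi replicate 3. *Gnmt* overlaps *CG43630* on the other strand, which had 3317 counts against 23694 for *Gnmt*.

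Sarcosine dehydrogenase, the next enzyme after Gnmt and encoded by *CG6385* (chromosome 2R from 17753555 to 17756422), had the same 3 libraries at its highest levels. It had 25.3, 53.1 and 31.4 CPM in the libraries labelled *svp* RNAi and 27.9, 71.5 and 101 CPM in the *Luc* RNAi controls. The log2 fold change was −0.87 (SE 0.50, adjusted p = 1.00 in edgeR), −1.20 without *Luc* control RNAi replicate 1 (adjusted p = 0.202 in edgeR), −0.44 without *Luc* control RNAi replicate 3 and −1.58 in limma voom with quality weights (adjusted p = 0.0117). Within a library, *Gnmt* had 4.37, 4.20 and 3.21 counts for each count of *CG6385* in the libraries labelled *svp* RNAi and 3.37, 5.00 and 5.98 in the *Luc* RNAi controls, which overlapped.

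**Figure D4:**
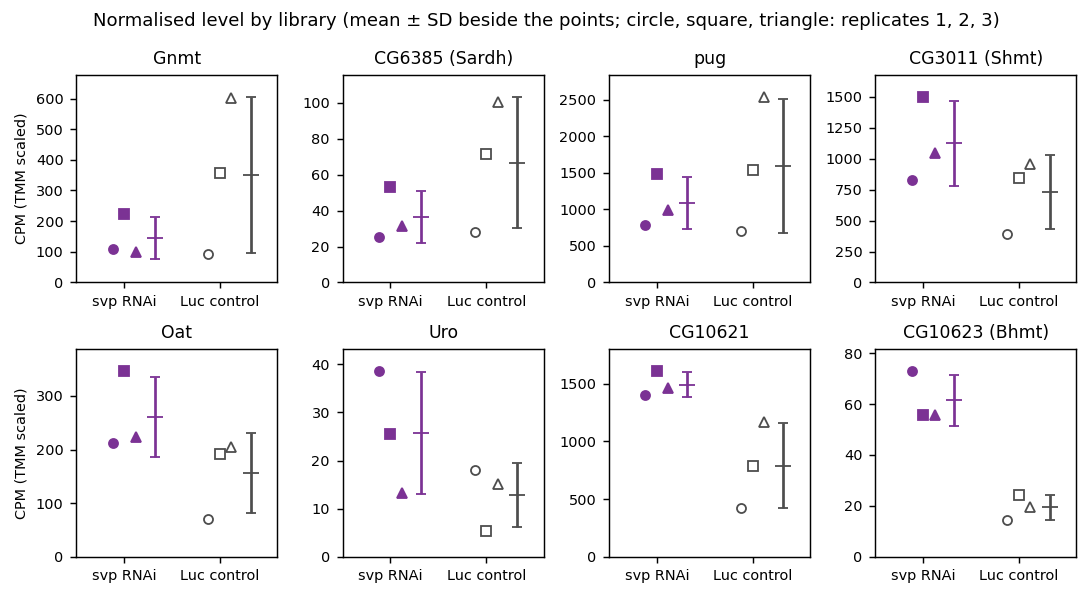
CPM in each library of 6 genes of the set and of the methionine cycle genes CG10621 and CG10623, libraries labelled svp RNAi on the left of each panel and Luc control RNAi libraries on the right, with the mean and SD of 3 libraries beside the points and axes from 0. For Gnmt, CG6385 and pug Luc control RNAi replicate 1 lies among or below the libraries labelled svp RNAi and replicate 3 lies far above them, whereas CG10623 is separate in all libraries.

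The enzymes of glycine, serine and folate included the most abundant gene of the set and fold changes in both directions. *CG3011* (chromosome X from 5913067 to 5916797), which moves a carbon unit from serine to folate, had 826, 1500.1 and 1043 CPM in the libraries labelled *svp* RNAi and 391, 842 and 959.9 CPM in the *Luc* RNAi controls. Its log2 fold change was 0.62 (SE 0.41, adjusted p = 1.00 in edgeR). *pug* (chromosome 3R from 10696534 to 10703316), whose product interconverts the folate-bound carbon units in the cytosol, went the other way, with 792, 1477 and 988 CPM in the libraries labelled *svp* RNAi and 709, 1538 and 2539 CPM in the *Luc* RNAi controls. The log2 fold change of *pug* was −0.56 (SE 0.50, adjusted p = 1.00 in edgeR), and it was −1.23 in limma voom with quality weights (adjusted p = 0.0335) and −0.05 without *Luc* control RNAi replicate 3. Without *Luc* control RNAi replicate 1 it was −0.87 (adjusted p = 0.327 in edgeR). Each of the 2 genes overlapped between the groups by itself, and the fold change of *CG3011* was 0.35 on the log2 scale without *Luc* control RNAi replicate 1.

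As a ratio within each library, the same 2 genes separated. *pug* stood to *CG3011* as 0.959, 0.985 and 0.947 in the libraries labelled *svp* RNAi and as 1.81, 1.83 and 2.65 in the *Luc* RNAi controls. The 3 libraries labelled *svp* RNAi had an SD of 0.0194, and each lay below each control, the first control library included. *CG6385* stood to *CG3011* as 0.0307, 0.0354 and 0.0301 in the libraries labelled *svp* RNAi and as 0.0714, 0.0849 and 0.105 in the *Luc* RNAi controls. *Gnmt* and *Sam-S*, by contrast, overlapped as a ratio, with 0.340, 0.636 and 0.323 in the libraries labelled *svp* RNAi and 0.390, 1.14 and 1.48 in the *Luc* RNAi controls. These 4 ratios with *Gnmt*, *CG6385* or *pug* on top were chosen after the values of the genes were seen and are a description without a test. The share of other gene pairs whose ratios separate was not measured. Each of *pug* and *CG3011* overlaps a gene with few counts, 2977 for *CG14683* beside 132091 for *pug*, and 3889 for *CG12236* beside 93011 for *CG3011*.

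**Figure D5:**
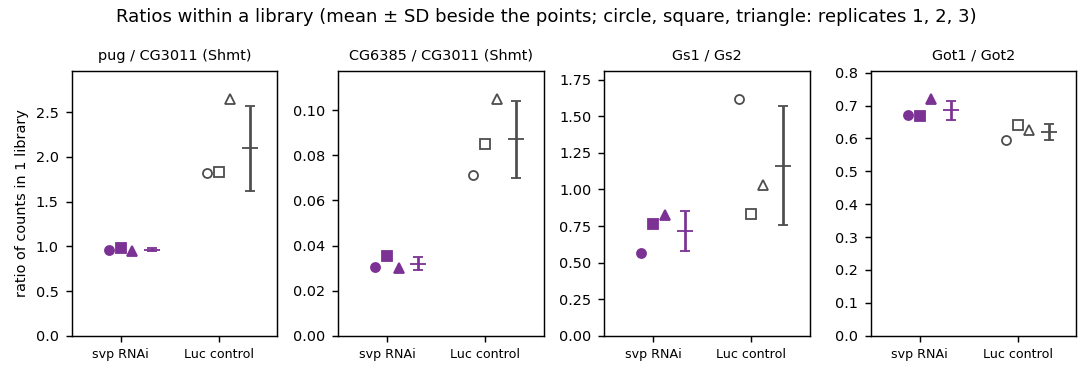
Ratio of the counts of 2 genes within the same library for 4 pairs, libraries labelled svp RNAi on the left of each panel and Luc control RNAi libraries on the right, with the mean and SD of 3 libraries beside the points and axes from 0. In all 4 panels the groups do not overlap, by a wide margin for the pairs with CG3011 (0.985 against 1.81 at the nearest for pug) and by a narrow one for Gs1 with Gs2 and Got1 with Got2. The pairs with CG3011 were chosen after the values of the genes were seen. The ratios of Gnmt to Sam-S and of Gnmt to CG6385, whose groups overlap, are not shown.

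The remaining enzymes of the route overlapped between the groups. Of the glycine cleavage system, the P protein gene *CG3999* averaged 99.8 ± 37.1 CPM in the libraries labelled *svp* RNAi and 86.9 ± 49.9 CPM in the *Luc* RNAi controls (SD, n = 3 each). The T protein gene *CG6415* averaged 81.1 ± 23.1 CPM in the libraries labelled *svp* RNAi and 91.6 ± 48.7 CPM in the *Luc* RNAi controls, and both were lowest in *Luc* control RNAi replicate 1. Phosphoserine phosphatase *aay*, the last step of serine synthesis, had 521, 775 and 633 CPM in the libraries labelled *svp* RNAi and 282, 654 and 675 CPM in the *Luc* RNAi controls. The mitochondrial folate dehydrogenase *Nmdmc* averaged 205 ± 46.0 CPM in the libraries labelled *svp* RNAi and 231 ± 122 CPM in the *Luc* RNAi controls, and it overlaps *Rel* on the same strand, which had 81752 counts against 21706 for *Nmdmc*.

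At the end of purine breakdown, *ry* (*rosy*) encodes xanthine dehydrogenase, which makes urate, and *Uro* encodes urate oxidase, an enzyme known in *Drosophila* from the Malpighian tubules. *ry* had 85.1, 143 and 96.8 CPM in the libraries labelled *svp* RNAi and 41.9, 101 and 119 CPM in the *Luc* RNAi controls, with overlap. *Uro* (chromosome 2L from 7780085 to 7781415) was the most variable gene of the set, with 38.6, 25.5 and 13.2 CPM in the libraries labelled *svp* RNAi and 18.0, 5.43 and 15.2 CPM in the *Luc* RNAi controls, a ratio of 7.11 between highest and lowest. Its log2 fold change was 1.00 (SE 0.54, adjusted p = 1.00 in edgeR) and 1.37 without *Luc* control RNAi replicate 1 (adjusted p = 0.361 in edgeR). It was 0.58 without *svp* RNAi replicate 1 and 0.63 without *Luc* control RNAi replicate 2. The 6 Malpighian tubule markers summed to 573, 657 and 491 CPM in the libraries labelled *svp* RNAi and to 317, 714 and 729 CPM in the *Luc* RNAi controls. Of these, *Irk3*, a potassium channel gene named after its values were seen, ranked the libraries labelled *svp* RNAi as *Uro* did, with 13.9, 8.01 and 3.53 CPM there and 2.94, 2.58 and 2.64 CPM in the *Luc* RNAi controls. *CapaR*, a receptor gene, had 1.81, 1.93 and 0.985 CPM in the libraries labelled *svp* RNAi and 0.936, 1.15 and 0.473 CPM in the *Luc* RNAi controls. None of the 5 markers other than *Irk3* shared that order of the libraries labelled *svp* RNAi. *Drip* averaged 25.9 ± 3.19 CPM in the libraries labelled *svp* RNAi and 47.7 ± 25.6 CPM in the *Luc* RNAi controls (SD, n = 3 each). The log2 fold changes of *Alp4*, *Eglp4* and *ZnT35C* were 0.02, −0.01 and 0.30, and over all 6 markers they ran from −0.88 for *Drip* to 1.64 for *Irk3*. *Eglp4* and *Alp4* carried most of each marker sum. *Eglp4* had 348, 447 and 334 CPM in the libraries labelled *svp* RNAi and 170, 380 and 590 CPM in the *Luc* RNAi controls. None of the 6 markers was at 0 in any library, and their part in the level of *Uro* was not tested.

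Other genes of the same routes were described from a list of 48 genes, of which 47 were found and 43 tested. edgeR called 0 of the 43 genes (0.097% of all genes tested), and 5 had an unadjusted p below 0.05 (4.99% of all genes), namely *CG10623*, *CG10621*, *CG30016* and *st* with fold changes above 0 and *GstZ1* with one below. DESeq2 called *CG10623* and *CG30016* higher and none lower, beside 1.45% of all genes in either direction, and limma voom with quality weights called 1 higher and 6 lower, beside 6.51%. The median log2 fold change of the 43 genes was 0.15, beside −0.06 over all genes tested. *CG10623* (chromosome 2L), named *Bhmt* in the RefSeq annotation after the methyltransferase that returns homocysteine to methionine, was the clearest of them, with 72.9, 55.6 and 55.7 CPM in the libraries labelled *svp* RNAi and 14.3, 24.3 and 19.7 CPM in the *Luc* RNAi controls. All 3 libraries labelled *svp* RNAi were more than 2-fold above all 3 controls. The log2 fold change was 1.66 (SE 0.26), with an adjusted p of 0.137 in edgeR, 1.1e-05 in DESeq2 and 0.0032 in limma voom, and it stayed between 1.51 and 1.85 when any library was left out. The edgeR adjusted p of *CG10623* was 0.0491 without *Luc* control RNAi replicate 1 and up to 0.643 without other libraries.

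Its neighbour on the chromosome, *CG10621*, had 1404, 1609.9 and 1467 CPM in the libraries labelled *svp* RNAi and 426, 783 and 1164 CPM in the *Luc* RNAi controls, which did not overlap. The log2 fold change of *CG10621* was 0.92 (SE 0.38, adjusted p = 1.00 in edgeR). The 2 genes belong to the same family, and how reads that fit both were counted is not given in the sources used here, so their values may not be independent. *CG30016*, whose product acts after urate oxidase in other animals, was low, with 4.39, 3.86 and 1.85 CPM in the libraries labelled *svp* RNAi and 1.02, 0.678 and 0.946 CPM in the *Luc* RNAi controls. Its log2 fold change was 1.92 (SE 0.47), with an adjusted p of 0.419 in edgeR and 0.041 in DESeq2. *CG8665*, which encodes a dehydrogenase of formyl folate, had 83.5, 115 and 81.6 CPM in the libraries labelled *svp* RNAi and 71.1, 185 and 234 CPM in the *Luc* RNAi controls, an order of libraries like that of *pug*, and limma voom called it lower (adjusted p = 0.0079).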

How the data were processed

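The authors aligned paired-end reads of poly(A)-selected RNA with TopHat and counted them per gene with HTSeq, and the deposited counts are whole numbers without normalization. Versions, the strand setting and the treatment of multiply mapped reads are not given in the sources used here. The deposited FPKM values were made by the authors from these counts, library totals and a gene length equal to or shorter than the listed one. The set, its routes, the other pathway genes and the marker lists were chosen with earlier results of these data known, and 6 symbols in the lists were corrected after the tables were read.

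Genes were filtered with edgeR's filterByExpr, which left 9277, and tested with edgeR 4.0.16 (TMM, quasi-likelihood) in R 4.3.3, Benjamini-Hochberg adjusted over all of them with a threshold of 0.05. The script was tested on simulated data. Alternatives, 17 in number, included other scalings, filters, DESeq2 1.42.0, limma 3.58.1 (voom with quality weights, and log2(FPKM + 1) or + 0.1) and leaving out each library. The methods name 3 independent experiments, without saying whether a library of each group shared one. Values per library were given for genes called or separated between groups, the most abundant of each route, the 3 most variable, and the *Gs* and *Got* pairs. Of the 38 genes, 37 had the same coordinates in the BDGP6 annotation, and 19 overlap another gene. No column was left without a sample.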

Additional observations from a re-analysis of the deposited data

How the results depend on the processing

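The count of 0 called genes of the set held in every fit except limma voom with quality weights, which called 4. Over all genes, where edgeR called 9, the counts were 14 with DESeq2's size factors, 30 with library totals (12 higher and 18 lower, against 2 higher and 7 lower), 25 without a filter, 153 with DESeq2, 604 with limma voom, and 35, 44 and 36 with limma on log2(FPKM + 1), log2(FPKM + 0.1) and log2(FPKM + 1) without a filter. With the replicate block the count was 27, none of them in the set. Same-numbered libraries deviated together for 2 numbers (correlations of 0.503 and 0.538) but not for the third (−0.306), so the numbers were not taken to pair the libraries. Leaving out a library gave 0 called genes of the set each time, between 3 and 61 genes over the table (61 without *Luc* control RNAi replicate 1), and a median log2 fold change of the set between −0.04 and 0.23.

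The count of genes of the set that did not overlap between the groups was 1, and 9 with library totals, 9 with the deposited FPKM, 5 with each library centred on the median of the set and 9 without *Luc* control RNAi replicate 1. The last 2 settings were chosen after seeing the data. Over 18 fits, 8 of the 36 genes were always above 0, 6 always below, and 22 changed sign. With 3 libraries a group, the 95% intervals of 23 of the 36 genes included a 2-fold difference.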
